A study of Mus musculus with 16 samples.

Results

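The genes described here are 10 genes of the integrated stress response: Atf4, Atf5, Ddit3, Ddit4, Trib3, Asns, Chac1, Sesn2, Gdf15 and Fgf21. They were found by gene symbol among the 47729 genes counted in 16 RNA-seq libraries of mouse liver cells, and all 10 were present. The set was chosen by pathway after Trib3 had been singled out by its counts in endothelial cells (ECs). The contrast of the 10 members between genotype labels in ECs is therefore a description and carries no test. Tests between cell types use the wild-type (WT) EC libraries, which were part of that choice, so their EC results carry this limit.

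The libraries came from ECs, hepatic stellate cells (HSCs), Kupffer cells, which are the resident macrophages of the liver, and hepatocytes of unchallenged livers, with 2 libraries for each cell type and genotype label. Mice labelled KO carried a floxed exon 7 of Zeb2, an eGFP reporter at the R26R locus and the tamoxifen-inducible Cdh5-CreERT2, in which the promoter of VE-cadherin directs Cre to ECs of all vessels. WT mice were littermates without Cre. Both labels received tamoxifen at 2 mg per day for 5 days, at 8 weeks of age, and according to the methods of the study expression was read 2 weeks later. HSCs, Kupffer cells and ECs were sorted, and hepatocytes were collected by centrifugation. Nothing in the labels says whether the 2 libraries of a group came from separate mice, so the tests below measure the spread between libraries, which may be technical.

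When a cell lacks amino acids or haem, accumulates misfolded proteins in the endoplasmic reticulum (ER) or senses double-stranded RNA, kinases phosphorylate the translation factor eIF2, which slows protein synthesis in general while the mRNA of the transcription factor ATF4 is translated more. ATF4 then activates genes for amino acid supply, for feedback control and, if stress persists, for cell death. Much of this control acts on translation, which a count of mRNA does not measure. In the liver the response is also known for secreted hormones, among them the products of Fgf21 and Gdf15.

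ATF4 binds composite C/EBP-ATF elements, and the promoters of the members were therefore searched for the letters TGATGNAA on both strands, in windows from 250 bases before to 50 bases after each RefSeq start site (GRCm38.p6). A match was found in 4 of the 10 members, and 4.51% of the 27025 genes with a promoter in this table hold one. The matches are shown to compare the 2 members with the largest positive difference in ECs (Trib3, Chac1) with the other 2 that hold one (Asns, Fgf21), each with 6 bases on either side, 5′ to 3′ on the strand of the gene and with the match in capitals. 
Trib3: tcaggtTTACATCAgccggg
Chac1: ctgccgTTGCATCActcctg
Asns: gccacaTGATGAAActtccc
Fgf21: cccccaTTGCATCAtccgtc
The 4 windows lie at chr2:152344033-152344052 (Trib3, minus strand), chr2:119351043-119351062 (Chac1, plus strand), chr6:7693219-7693238 (Asns, minus strand) and chr7:45615616-45615635 (Fgf21, minus strand). In Trib3 the match began 15 bases into the RefSeq transcript, which is before the start of the GENCODE gene model. In the other 3 genes it began before the start site, at position -193 in Chac1, -139 in Fgf21 and -23 in Asns. The Chac1 and Fgf21 matches hold the same 8 letters on the same strand. CCACG, a part of the ER stress element, occurred in 7 members and in 35.5% of all genes. Such matches are letters in a window and say nothing of binding.

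Each library held between 12872706 and 15690506 counts on genes, so that 3 counts, the floor used here, corresponded to 0.191 to 0.233 CPM, the count scaled to a common library size. The targeted gene Zeb2 was not lower in ECs labelled KO, with 199 and 130 CPM against 107 and 106 CPM in WT, and the groups are therefore called by their labels only. These counts cover the whole gene, of which exon 7 is a part, so they do not check the deletion itself. The study reports an efficient deletion of Zeb2 in endothelium, measured both on mRNA and as a fraction of ECs. The summed level of 8 endothelial genes was 14641 to 19715 CPM in the EC libraries and at most 1198 CPM in the others, and those of 8 stellate, 8 Kupffer and 8 hepatocyte genes were at least 74509, 36319 and 108485 CPM in their own cell type. Hepatocyte RNA was high in WT ECs and differed between the labels: the 8 hepatocyte genes summed to 12783 and 26353 CPM in WT ECs, of the size of the endothelial sum there (14641 to 17484 CPM), and to 2192 and 3023 CPM under the KO label. Its share, taken as the median level of 856 hepatocyte-enriched genes relative to WT hepatocytes, was 11.1% and 22.9% in WT ECs and 3.34% and 2.28% in ECs labelled KO. It was 3.92% and 7.94% in WT HSCs against 0.918% and 1.39% under the KO label. The order was the reverse for Kupffer cells, from 4.73% and 8.57% in the WT pair to 9.72% and 11.4%. The 856 genes were chosen as low in the WT Kupffer pair, which favours this order. The 8 hepatocyte genes were not chosen by that level, and summed to 6713 to 9202 CPM in WT Kupffer cells and 10163 to 12446.5 CPM under the KO label. Dissociation-induced genes, 10 in the list, separated by label in 2 cell types. Their sum was 20733 and 31230 CPM in WT Kupffer cells against 5981 and 9501 CPM under the KO label, and 4976 and 4993 CPM in WT hepatocytes against 2414 and 3949 CPM, while in ECs (21101 to 35493 CPM) and HSCs (38934 to 46383 CPM) the labels overlapped. In bulk RNA, fewer cells of a type and less RNA per cell cannot be told apart.

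Levels of the members were first compared between the 4 cell types. Hepatocytes were not sorted, so in every comparison with them cell type and isolation route cannot be told apart. Dissociation genes also summed to less in WT hepatocytes (4976 and 4993 CPM) than in WT sorted cells (20733 to 46383 CPM). The part of this difference in the levels of the members was not tested. Atf4, the central transcription factor (chr15:80255184-80257541), was detected well above the floor in every library. In WT libraries it reached 271 and 261 CPM in the 2 EC libraries, 197 and 205 CPM in HSCs, 198 and 161 CPM for Kupffer cells, and 75.6 and 61.4 CPM in hepatocytes. In CPM the hepatocyte libraries were the lowest and the EC libraries the highest, without overlap. No pair of cell types passed for Atf4 in the test described below (lowest adjusted p = 0.113, hepatocytes against ECs, edgeR). Per transcript length, Atf4 was also the most abundant member in WT ECs at 113 RPKM (the CPM divided by the exon length in kilobases), followed by Gdf15 at 41.5 RPKM and Ddit3 at 40.0 RPKM, whereas Trib3 stood at 2.20 RPKM and Chac1 at 2.13 RPKM.

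**Figure D1:**
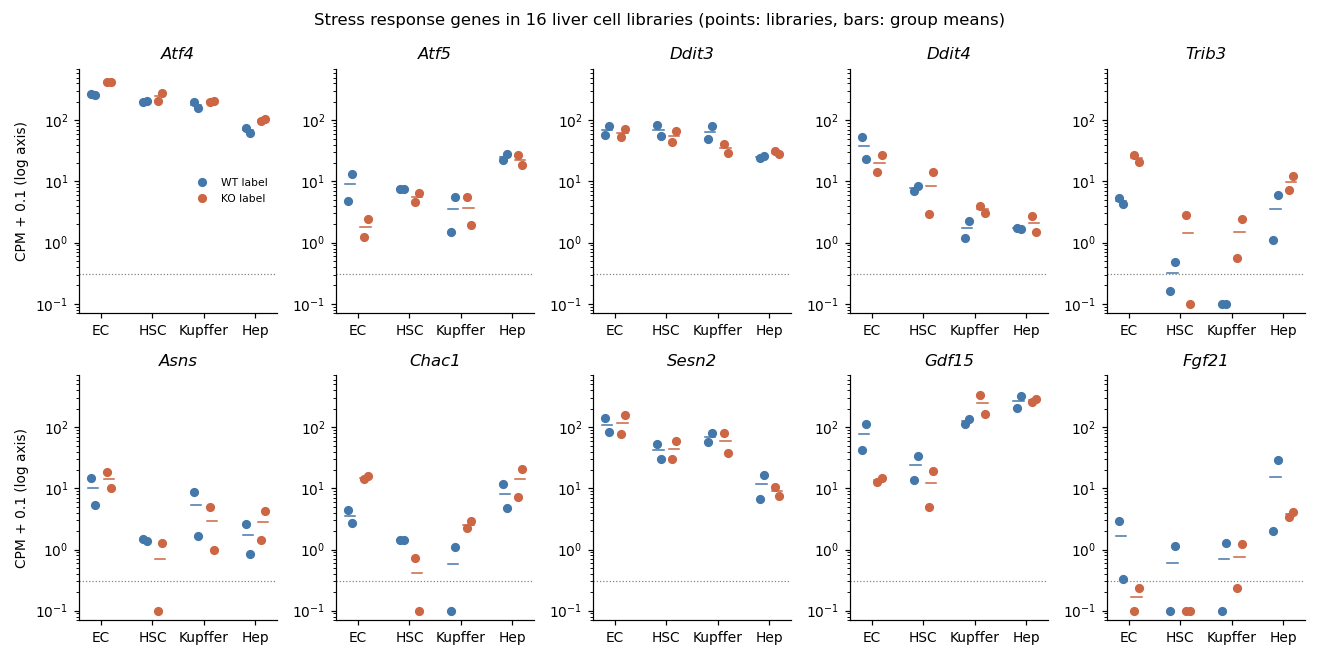
Level of each of the 10 members in the 16 libraries, as CPM plus 0.1 on a logarithmic axis, by cell type (EC, HSC, Kupffer cell, Hep for hepatocyte) and label. Points are libraries, short bars the means of 2 libraries, and the dotted line marks 3 counts at the median depth. In ECs, Trib3 reaches 27.2 and 20.6 CPM under the KO label against 5.16 and 4.19 CPM in WT, while in HSCs and Kupffer cells it stays at or below 2.70 CPM.

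Differences between WT cell types were tested with edgeR's quasi-likelihood test on the 8 WT libraries, with p-values adjusted over all 15979 genes tested by Benjamini-Hochberg. The test passed 4 of 10 members between hepatocytes and ECs, where 43.6% of all genes passed, 4 between hepatocytes and HSCs (41.8% of all genes) and 4 between hepatocytes and Kupffer cells (40.6% of all genes). No member differed between ECs and HSCs in this test (10.2% of all genes did), although 4 had an unadjusted p under 0.05 and DESeq2 called 2. ECs and Kupffer cells differed in 2 members (17.3% of all genes) and HSCs and Kupffer cells in 2 (21.2% of all genes). The counts of members were thus near or below the share of all genes in each pair.

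Hepatocytes were the high cell type for the secreted members. Gdf15, a stress-induced cytokine of the TGF-beta family (chr8:70629393-70632456), reached 209 and 326 CPM in WT hepatocytes, 111 and 137 CPM in Kupffer cells, 42.1 and 112 CPM in ECs and 13.6 and 33.7 CPM in HSCs. It was higher in hepatocytes than in ECs by 3.18 ± 0.59 (log2 fold change ± SE, adjusted p = 0.00382, edgeR), than in HSCs by 4.59 ± 0.63 (adjusted p = 0.000942, edgeR) and than in Kupffer cells by 2.11 ± 0.57 (adjusted p = 0.0194, edgeR). Kupffer cells in turn exceeded HSCs, with a difference of HSCs minus Kupffer cells of -2.49 ± 0.58 (adjusted p = 0.0194, edgeR). Kupffer cells and ECs, neighbours in this order, did not pass (adjusted p = 0.228, edgeR). Multiplied by the WT hepatocyte level, the hepatocyte RNA share would carry 29.7 and 61.1 CPM of Gdf15 into the WT EC libraries. Into the WT HSC libraries it would carry 10.5 and 21.2 CPM. The remainders, 12.3 and 50.5 CPM in ECs and 3.1 and 12.4 CPM in HSCs, overlapped. Fgf21, a fasting and stress hormone of hepatocytes (chr7:45613886-45615490), was at 1.91 and 28.6 CPM in WT hepatocytes and at most 2.86 CPM in any library of another cell type. The lower hepatocyte library lay below 1 of the EC libraries, and no pair of cell types passed (lowest adjusted p = 0.0523, edgeR).

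Atf5, a stress-responsive relative of Atf4 with a role in mitochondrial protein homeostasis (chr7:44812256-44816658), followed the same order at the top. Its level was 22.1 and 28.4 CPM in WT hepatocytes, 4.61 and 13.1 CPM in ECs, 7.49 CPM in both HSC libraries, and 1.41 and 5.48 CPM in Kupffer cells. The hepatocyte libraries lay above the others, whose ranges overlapped or touched one another except that the HSC values exceeded both Kupffer cell values. The excess of hepatocytes was 2.89 ± 0.66 over ECs (log2 fold change ± SE, adjusted p = 0.00959, edgeR), 2.83 ± 0.66 over HSCs (adjusted p = 0.0108, edgeR) and 3.91 ± 0.70 over Kupffer cells (adjusted p = 0.00315, edgeR). Atf5 overlaps Il4i1 and Nup62 in the annotation, and how strand was set in counting is not given in the sources used here, so some of its reads may belong to those genes.

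Chac1, an enzyme that degrades glutathione (chr2:119351229-119354381), was at 11.5 and 4.70 CPM in WT hepatocytes, 4.33 and 2.64 CPM in ECs, 1.34 CPM in both HSC libraries and 0 and 0.979 CPM in Kupffer cells. In CPM the 4 cell types did not overlap in this order. Multiplied by the WT hepatocyte level, the hepatocyte RNA share would carry 0.9 and 1.85 CPM of Chac1 into these EC libraries. For the HSC libraries it would carry 0.317 and 0.642 CPM. The remainders, 3.43 and 0.792 CPM in ECs and 1.03 and 0.701 CPM in HSCs, overlapped. Hepatocytes exceeded HSCs by 3.63 ± 1.18 (log2 fold change ± SE, adjusted p = 0.0392, edgeR) and Kupffer cells by 5.05 ± 1.29 (adjusted p = 0.0151, edgeR), whereas ECs and hepatocytes did not pass (adjusted p = 0.0998, edgeR).

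Trib3, a pseudokinase that feeds back on ATF4 and CHOP (chr2:152337422-152344032), had its higher WT levels in ECs and hepatocytes. It stood at 5.16 and 4.19 CPM in ECs, 1.02 and 5.80 CPM in hepatocytes, 0.0640 and 0.384 CPM in HSCs, and at 0 counts in both Kupffer cell libraries. Against the floor of 3 counts in each library, WT ECs were at least 23.6-fold and WT hepatocytes at least 17.2-fold higher than WT Kupffer cells (adjusted p = 0.0218 and 0.00685, edgeR). The WT EC counts of Trib3 were part of what singled it out, so its p for ECs is given as a description. Hepatocytes exceeded HSCs by 4.99 ± 1.35 (log2 fold change ± SE, adjusted p = 0.0228, edgeR). ECs and hepatocytes did not differ beyond their spread, and the sign depended on scaling: hepatocytes minus ECs was 0.93 ± 1.10 with TMM (trimmed mean of M values) factors and -0.46 ± 1.12 when scaled by total counts.

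Ddit4, an inhibitor of mTORC1 signalling (chr10:59949669-59951834), and Sesn2, which senses leucine upstream of the same kinase (chr4:132492032-132510501), had their highest levels in ECs. Ddit4 was at 52.3 and 23.0 CPM in WT ECs, 6.79 and 8.45 CPM in HSCs, 1.07 and 2.15 CPM in Kupffer cells and 1.66 and 1.57 CPM in hepatocytes. ECs lay above all other WT libraries, and HSCs above Kupffer cells and hepatocytes. The difference of hepatocytes minus ECs was -3.21 ± 0.58 (log2 fold change ± SE, adjusted p = 0.00338, edgeR), ECs exceeded Kupffer cells by 4.21 ± 0.60 (adjusted p = 0.00286, edgeR), and HSCs exceeded Kupffer cells by 2.17 ± 0.56 (adjusted p = 0.0298, edgeR). Sesn2 ranged from 82.0 and 139 CPM in WT ECs down to 6.50 and 16.4 CPM in hepatocytes, with Kupffer cells (56.7 and 79.8 CPM) and HSCs (53.8 and 29.8 CPM) between. Only hepatocytes and ECs differed for Sesn2 (-1.91 ± 0.55, hepatocytes minus ECs, adjusted p = 0.0244, edgeR), and a predicted gene overlaps it.

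The remaining members had no pair of cell types past the threshold. Ddit3, which encodes the death-associated factor CHOP (chr10:127290774-127296288), had WT levels of 58.1 and 79.0 CPM in ECs, 83.4 and 54.9 CPM in HSCs, 49.1 and 80.7 CPM in Kupffer cells and 23.8 and 25.6 CPM in hepatocytes. The 3 sorted cell types overlapped and hepatocytes lay below them. Ddit3 overlaps Gm4189 and Mars in the annotation, so, as for Atf5, some of its reads may belong to those genes. Asns, which makes asparagine and is a classical ATF4 target (chr6:7675169-7693254), was low throughout, between 0.750 CPM in a WT hepatocyte library and 14.5 CPM in a WT EC library.

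Scaling matters for every comparison with hepatocytes. The TMM factors were 0.497 to 0.588 in hepatocytes and 1.34 to 1.47 in ECs, and with total counts in their place the median log2 difference of all genes moved from -0.29 to -1.62 between hepatocytes and ECs, from -0.42 to -1.48 between hepatocytes and HSCs and from -0.10 to -1.08 between hepatocytes and Kupffer cells. Under total counts Atf4, Ddit3 and Sesn2 passed as lower in hepatocytes than in each of the other cell types, whereas Atf5 (against ECs and HSCs), Chac1 (against HSCs) and Gdf15 (against Kupffer cells) no longer passed. Between ECs and Kupffer cells the same median moved from 0.17 to 0.53, between ECs and HSCs from 0.00243 to 0.28, and between HSCs and Kupffer cells from 0.0577 to 0.14. With any 1 of the 8 WT libraries left out, the calls that still passed each time were Gdf15 against ECs and HSCs, Atf5 against Kupffer cells, Trib3 against Kupffer cells and Ddit4 against ECs, all for hepatocytes, and Ddit4 between ECs and Kupffer cells. In the libraries labelled KO, however, 3 of these did not pass (adjusted p in edgeR): Trib3 between hepatocytes and Kupffer cells (0.0741), Ddit4 between hepatocytes and ECs (0.0720) and Ddit4 between ECs and Kupffer cells (0.0927). The other calls kept their direction but ended without some libraries, here with the adjusted p in edgeR. Between hepatocytes and ECs, Atf5 ended without EC library 34 (0.0540) and Sesn2 without EC library 34 (0.118) or hepatocyte library 29 (0.110). Between hepatocytes and Kupffer cells, Chac1 ended without hepatocyte library 29 (0.0708), and Gdf15 without hepatocyte library 33 (0.0978) or either Kupffer cell library, 31 or 39 (0.0849 and 0.0895). Between hepatocytes and HSCs, Trib3 ended without hepatocyte library 33 (0.152) or HSC library 32 (0.117), Atf5 without hepatocyte library 33 (0.0522) or HSC library 32 or 40 (0.0633 and 0.0636), and Chac1 without any 1 of the EC, hepatocyte and HSC libraries (up to 0.174). Trib3 between ECs and Kupffer cells ended without any 1 of their 4 libraries (up to 0.0777). Between HSCs and Kupffer cells, Ddit4 ended without any 1 of their 4 libraries (up to 0.135) and Gdf15 without Kupffer cell library 31 (0.0558) or HSC library 32 (0.0855).

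The second question was whether Trib3 in ECs moved together with the other members under the KO label. Chac1 and, by a smaller amount, Atf4 were also higher in both KO libraries, Atf5, Gdf15 and Fgf21 were lower in both, and the other 4 members overlapped. Trib3 was at 27.2 and 20.6 CPM in libraries 6 and 46 of the KO label against 5.16 and 4.19 CPM in libraries 34 and 38 of WT, a log2 fold change of 2.34 ± 0.36 (SE). All values of this contrast are descriptive, since Trib3 was chosen by them. The filter on low counts kept 9 members in ECs. Across all genes 2.08% were called in this comparison, and among the members 1 was, Trib3, which the choice of the set had fixed, so nothing is read from it.

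Chac1 was the nearest to Trib3 in size. Its libraries stood at 14.2 and 15.6 CPM under the KO label and at 4.33 and 2.64 CPM in WT, with no overlap and a log2 fold change of 2.09 ± 0.46. Atf4 stood at 423 and 428 CPM against 271 and 261 CPM, also without overlap, at 0.68 ± 0.22. In all, 3 tested members were higher in both KO libraries than in both WT libraries, and 24.2% of all genes were, while 2 tested members were lower in both, and 24.1% of all genes were. Over the 9 members the median log2 fold change was 0.10, beside -0.01 for all genes tested.

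The CHOP gene Ddit3 gave 52.4 and 71.1 CPM in ECs labelled KO and 58.1 and 79.0 CPM in WT, so the 2 labels were interleaved (log2 fold change -0.14 ± 0.28). Asns gave 18.5 and 9.87 CPM against 14.5 and 5.20 CPM, with 1 KO library below the higher WT library (0.49 ± 0.58). Sesn2 gave 78.6 and 155 CPM against 139 and 82.0 CPM (0.10 ± 0.42). For these 3 genes the libraries of 1 label differed from each other by more than the labels did. Ddit4 was at 14.0 and 26.5 CPM against 52.3 and 23.0 CPM (-0.89 ± 0.51), where the WT library 34 stood above the other libraries.

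**Figure D2:**
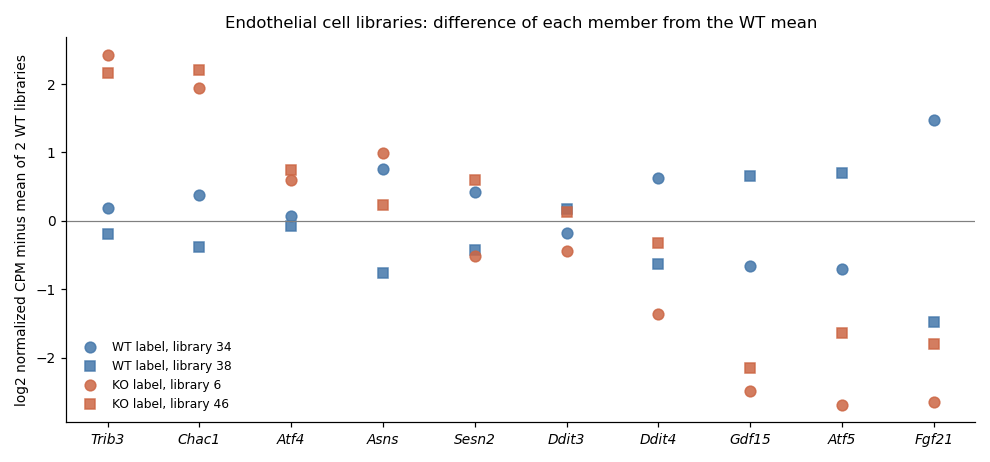
Difference of each EC library from the mean of the 2 WT EC libraries, in log2 CPM after TMM scaling with a prior count of 2, for the 10 members. Circles and squares are single libraries, blue for WT and orange for the KO label. Both KO libraries lie above both WT libraries for Trib3, Chac1 and Atf4, and below them for Gdf15, Atf5 and Fgf21.

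The members with their highest level in hepatocytes, apart from Chac1, went the other way in ECs. Gdf15 was at 12.7 and 14.7 CPM in the KO libraries against 42.1 and 112 CPM in WT (log2 fold change -2.48 ± 0.47). Atf5 was at 1.11 and 2.29 CPM against 4.61 and 13.1 CPM (-2.35 ± 0.76). Fgf21, which was too low to be tested in ECs, gave 0 and 2 counts in the KO libraries and 41 and 3 counts in WT. All 3 were lower in both KO libraries.

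The share of hepatocyte RNA was lower under the KO label too. Multiplied by the WT hepatocyte level, it would carry 29.7 and 61.1 CPM of Gdf15 into the WT EC libraries and 8.94 and 6.10 CPM into the KO libraries, which leaves 12.3 and 50.5 CPM in WT and 3.74 and 8.57 CPM under the KO label. For Atf5 the remainder was 1.80 and 7.36 CPM in WT and 0.271 and 1.72 CPM under the KO label. At this level the labels did not overlap in either gene, but for Atf5 only narrowly (1.80 against 1.72 CPM). The WT hepatocyte level is a mean of 2 unlike libraries, with Gdf15 at 209 and 326 CPM and Atf5 at 22.1 and 28.4 CPM. Whether the remainders stay apart with either library alone was not tested. With the share from a stricter set of 112 genes the remainder of Gdf15 was 20.5 and 79.8 CPM in WT and 6.09 and 10.5 CPM under the KO label. Fgf21 did not follow the share, which would carry 1.70 CPM into WT library 34, where 2.86 CPM were measured, and 3.49 CPM into WT library 38, where 0.233 CPM were measured. For Trib3 the share would carry at most 0.779 CPM into any EC library, for Chac1 at most 1.85 CPM and for Atf4 at most 15.7 CPM, and the carried level was higher in WT than under the KO label.

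**Figure D3:**
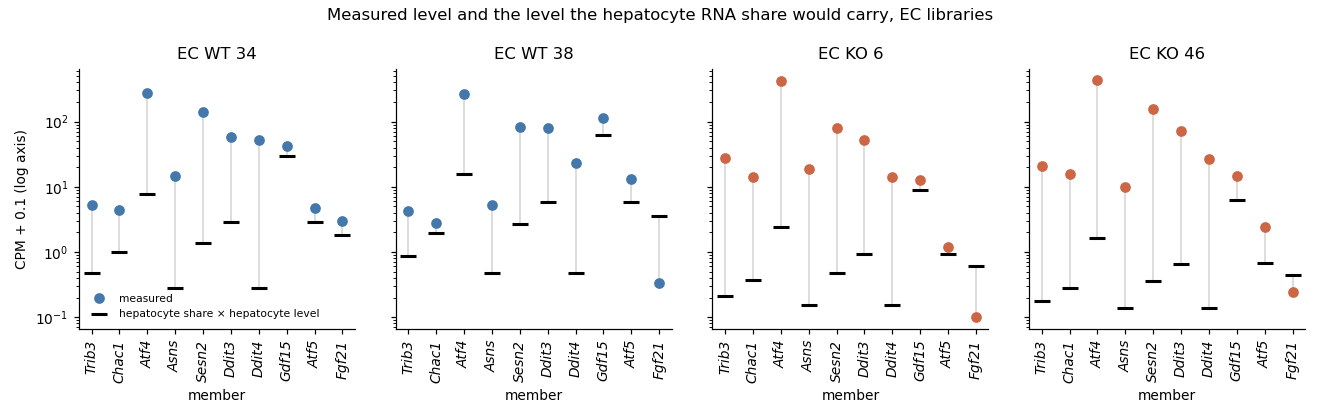
Measured level (circles) of the 10 members in the 4 EC libraries and the level that the library's hepatocyte RNA share would carry (dashes), as CPM plus 0.1 on a logarithmic axis. For Gdf15 the dash is near the circle, at 29.7 of 42.1 CPM in WT library 34, whereas for Trib3 in KO library 6 it lies at 0.114 of 27.2 CPM.

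The same contrast was then read in the other cell types. Their libraries did not single out Trib3, although the members were chosen with earlier results of these data known. No member passed among 8 tested in HSCs (0% of all genes did), 9 tested for Kupffer cells (0% of all genes) and 10 tested for hepatocytes (0% of all genes), by edgeR. At an unadjusted p under 0.05 there were 0, 2 and 1 members in the same order, beside 8.75%, 5.09% and 7.11% of all genes, and DESeq2 also called 0 in each.

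In hepatocytes Atf4 was at 95.5 and 105 CPM under the KO label against 75.6 and 61.4 CPM in WT, a log2 fold change of 0.62 ± 0.20 that did not pass (adjusted p = 0.700, edgeR). Trib3 stood at 7.09 and 12.3 CPM against 1.02 and 5.80 CPM, at 1.56 ± 0.82 (adjusted p = 0.713, edgeR), which became 0.77 without WT library 29 and 3.38 without WT library 33. Ddit3 stood at 31.4 and 27.7 CPM against 23.8 and 25.6 CPM, at 0.32 ± 0.20 (adjusted p = 0.748, edgeR). These 3 members were higher in both KO libraries in CPM, as were 16.4% of all genes, and no member was lower in both, as 23.2% of all genes were. The sum of the dissociation genes was lower under the KO label, and its part in these values was not tested. Chac1 overlapped, with 7.09 and 21.0 CPM against 11.5 and 4.70 CPM.

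In Kupffer cells Ddit3 gave 40.8 and 29.3 CPM under the KO label against 49.1 and 80.7 CPM in WT, a log2 fold change of -0.93 ± 0.34 (adjusted p = 0.933, edgeR). The summed dissociation genes were lower under the KO label as well (5981 and 9501 CPM against 20733 and 31230 CPM), and their part was not tested. Gdf15 gave 337 and 161 CPM against 111 and 137 CPM, at 0.94 ± 0.38 (adjusted p = 0.933, edgeR), or 0.37 without KO library 27. Here the hepatocyte share would carry 26.0 and 30.4 CPM of Gdf15 into the KO libraries and 12.6 and 22.9 CPM into the WT libraries, which leaves 311 and 131 CPM against 98.4 and 114 CPM. Chac1 was at 2.11 and 2.77 CPM against 0 and 0.979 CPM (2.34 ± 1.70), where the hepatocyte share would carry 0.786 and 0.919 CPM into the KO libraries, and Ddit4 at 3.82 and 2.98 CPM against 1.07 and 2.15 CPM (1.04 ± 0.88). Trib3 failed the filter on low counts, with 0.462 and 2.37 CPM under the KO label and 0 counts in WT, at least 7.13-fold higher against the floor, or at least 2.33-fold by library 27 alone. The hepatocyte share would carry 0.331 and 0.387 CPM of Trib3 into these KO libraries. Of the tested members, 4 were higher in CPM in both KO libraries (20.5% of all genes) and 1 was lower in both (16.1% of all genes).

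HSCs showed the reverse for Chac1, at 0.622 and 0 CPM under the KO label against 1.34 CPM in both WT libraries (log2 fold change -2.15 ± 1.60, adjusted p = 0.799, edgeR). The hepatocyte share, lower under the KO label here too, would carry 0.317 and 0.642 CPM of Chac1 into the WT libraries and 0.0742 and 0.113 CPM into the KO libraries, and its part was not tested. Atf5 was at 4.49 and 6.29 CPM against 7.49 CPM in both (-0.48 ± 0.47), and Asns at 0 and 1.18 CPM against 1.41 and 1.28 CPM (-1.15 ± 1.68). Atf4, at 207 and 283 CPM against 197 and 205 CPM, was the single tested member higher in CPM in both KO libraries (0.28 ± 0.26), as were 20.5% of all genes, although after TMM scaling KO library 8 lay below both WT libraries, and 3 were lower in both, as were 19.3% of all genes. Trib3 was not tested: 1 KO library held 2.70 CPM, and the other 3 HSC libraries held 0 to 0.384 CPM. Most of these differences lie within a few CPM of the floor.

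**Figure D4:**
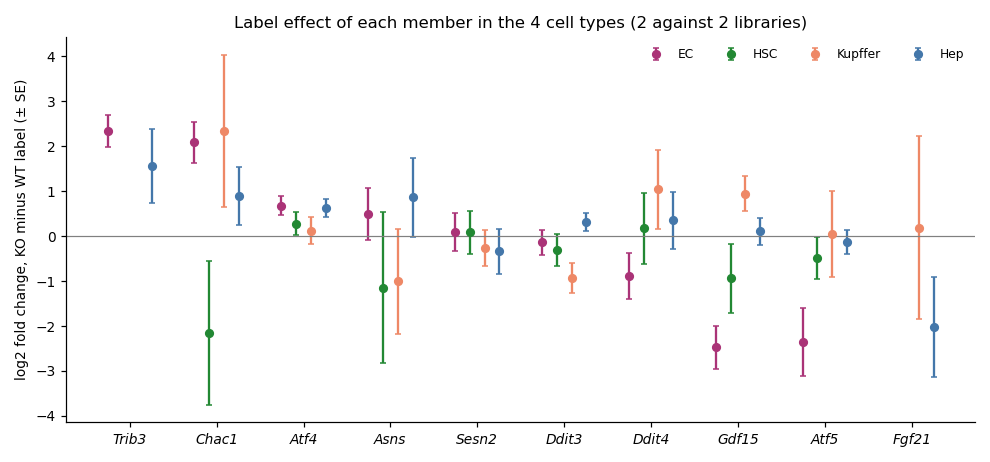
Log2 fold change of each member, KO minus WT label, with its SE (bars), in the 4 cell types, from 2 against 2 libraries each. Members that failed the filter on low counts in a cell type have no point. In ECs Trib3 lies at 2.34 and Chac1 at 2.09, Gdf15 at -2.48 and Atf5 at -2.35. Atf4 lies above 0 in all 4 cell types, from 0.12 in Kupffer cells to 0.68 in ECs.

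Atf4 had a positive log2 fold change in each of the 4 cell types. In CPM its labels did not overlap in any of them, but after TMM scaling they overlapped in HSCs and Kupffer cells. Its log2 fold changes were 0.68 ± 0.22 in ECs and 0.62 ± 0.20 in hepatocytes, and 0.28 ± 0.26 and 0.12 ± 0.30 in HSCs and Kupffer cells. Without HSC library 20 the value in HSCs was -0.05, and without Kupffer cell library 39 that in Kupffer cells was -0.12, so the direction in these cell types rests on 1 library each. Across cell types, a test of the difference in label effect called no member between hepatocytes and HSCs (0.0755% of all genes), between hepatocytes and Kupffer cells (0.0116% of all genes) or between HSCs and Kupffer cells (0.593% of all genes), with 0, 1 and 1 members at an unadjusted p under 0.05 in edgeR, beside 7.16%, 8.18% and 11.7% of all genes, and no call by DESeq2. Pairs with ECs carry no test for the members, because the EC counts of Trib3 had led to the choice of the set.

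The likeness of the members to Trib3 was also described from library to library. Over the 16 libraries, after the mean of each cell type was removed from the log2 CPM, the correlation with Trib3 was 0.57 for Chac1 (rank 294 of 13824 genes) and 0.34 for Atf4. It was 0.10 for Fgf21 and negative for Ddit4, Sesn2, Gdf15, Asns, Atf5 and Ddit3, down to -0.59 for Ddit3. The genes most like Trib3 by this measure were Krcc1 (0.87), Tm2d1 (0.86), Ldhb (0.86) and Sucla2 (0.85), none of them a member. These are descriptions over 16 libraries that share labels and cell isolations. The EC libraries that singled out Trib3 are among them and weigh on every value. So do the HSC and Kupffer cell libraries, where Trib3 failed the filter on low counts. Kupffer cell libraries 31, 39, 27 and 43 held 0, 0, 7 and 35 counts, and HSC libraries 32, 40, 8 and 20 held 1, 6, 39 and 0. As log2 differences from the WT mean, Trib3 spanned 0 to 4.12 in Kupffer cells and -1.17 to 2.99 in HSCs. The span was -0.184 to 2.43 in ECs and -1.28 to 2.46 in hepatocytes. Each correlation therefore rests in part on counts near the floor.

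The wider pathway was followed in 74 further genes in 7 lists. None passed the test under the KO label in any cell type, with 65 to 69 of them tested in each. At an unadjusted p under 0.05, 2 were higher and 8 lower in ECs, 0 and 8 in HSCs, 3 and 2 for Kupffer cells, and 0 and 1 for hepatocytes (edgeR). Over all genes 4.86% were higher and 10.1% lower in ECs at this p, 1.75% and 7.00% in HSCs, 3.35% and 1.74% for Kupffer cells, and 2.42% and 4.69% for hepatocytes. DESeq2 called 3, 2, 1 and 0 genes in the same order. The median log2 fold change over all 7 lists was -0.08, -0.05, 0.01 and 0.04 in this order, beside -0.01, 0.02, -0.02 and -0.02 for all genes.

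In ECs the list upstream of ATF4 had its median a little above 0. Of the 14 eIF2 kinases, eIF2 and eIF2B subunits and phosphatase genes, 9 had a positive log2 fold change, with a median of 0.14. Eif2b2, a subunit of the exchange factor that recharges eIF2, gave 80.3 and 79.2 CPM under the KO label against 47.7 and 46.5 CPM in WT (0.76, adjusted p = 0.159, edgeR). Eif2ak2, the kinase PKR, gave 48.5 and 49.6 CPM against 34.9 and 25.1 CPM (0.71, adjusted p = 0.300, edgeR). Neither passed, though both labels were separate in each.

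The medians of ATF4's known target groups lay near or below 0. Of 11 amino acid and one-carbon enzymes tested in ECs, 4 were above 0 and 7 below, with a median of -0.44. The lowest were Gpt2, an alanine aminotransferase (16.1 and 4.73 CPM against 39.7 and 115 CPM, log2 fold change -2.92, adjusted p = 0.111, edgeR), Cbs (-2.46, adjusted p = 0.0557, edgeR) and Cth (-2.18, adjusted p = 0.0766, edgeR), the last 2 being enzymes that convert homocysteine to cysteine. All 3 belong to the hepatocyte-enriched genes, whose share was lower under the KO label. At the other end, Psph, which makes serine, was at 12.6 and 18.6 CPM against 8.72 and 7.77 CPM (0.93, adjusted p = 0.345, edgeR), and Mthfd2, a mitochondrial folate enzyme, at 4.32 and 5.77 CPM against 4.12 and 0.855 CPM (1.01, adjusted p = 0.650, edgeR).

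Of 7 amino acid transporters tested in ECs, 6 lay below 0, with a median of -0.27, and 13 tRNA synthetase genes had a median of -0.06. Slc7a5, the large neutral amino acid transporter, was at 7.87 and 8.41 CPM under the KO label against 14.9 and 21.5 CPM in WT (-1.16, adjusted p = 0.216, edgeR), the reverse of the order for Trib3. The list of partner factors had a median of -0.38 over 5 genes, and other ATF4 or CHOP targets one of 0.00410 over 6. Genes of the parallel arms of the unfolded protein response, through IRE1 and ATF6, had a median of 0.02 over 12 genes. Among them the chaperone gene Hspa5 overlapped between labels (2829 and 2189 CPM against 2196 and 1263 CPM), and Ern1, which encodes IRE1, was at 14.6 and 12.9 CPM against 23.3 and 21.7 CPM (-0.72, adjusted p = 0.322, edgeR).

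**Figure D5:**
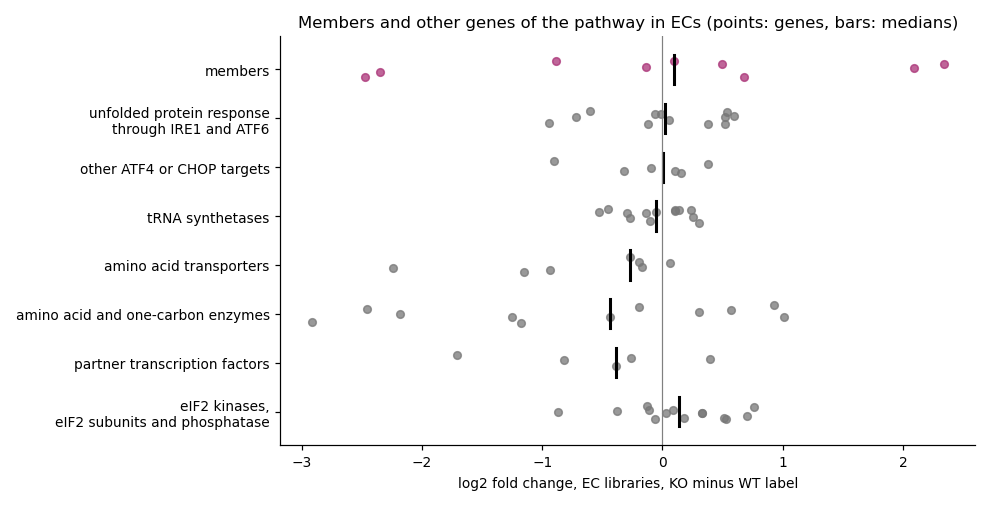
Log2 fold change, KO minus WT label, in ECs for the 9 tested members and for the tested genes of the 7 pathway lists. Points are genes, vertical bars the median of a list, and the grey line 0. The members spread from -2.48 to 2.34 around a median of 0.10, and the list medians lie between -0.44 and 0.14.

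In the other cell types single lists leaned to 1 side without a gene that passed. All 8 amino acid transporters tested in Kupffer cells lay above 0, with a median of 0.88. Their WT means there were 1.02 CPM for Slc7a5, 1.06 for Slc6a9, 1.15 for Slc1a4 and 2.80 for Slc7a11. The others had means from 8.5 (Slc7a1) to 1343 CPM (Slc3a2). Slc6a9 is hepatocyte-enriched, and the part of the hepatocyte share, higher under the KO label in Kupffer cells, was not tested. In HSCs 6 of 7 transporters lay below 0, with a median of -0.25, and 7 of 11 amino acid and one-carbon enzymes did, with a median of -0.64. Among these enzymes in HSCs, Cbs (-2.04), Gpt2 (-1.79) and Cth (-1.59) are hepatocyte-enriched genes. The hepatocyte share in HSCs was 0.918% and 1.39% under the KO label against 3.92% and 7.94% in WT, and its part was not tested. In Kupffer cells Ppp1r15a, the stress-induced eIF2 phosphatase subunit, was at 769 and 603 CPM under the KO label against 1420 and 1938 CPM in WT (log2 fold change -1.34, adjusted p = 0.933, edgeR). Atf3, a factor induced along with the response, was at 1266 and 379 CPM against 1955 and 2161 CPM (-1.40, adjusted p = 0.933, edgeR), and Cebpb was higher, at 30.9 and 31.1 CPM against 15.4 and 6.53 CPM (1.41, adjusted p = 0.933, edgeR). The summed dissociation genes were lower under the KO label here, in the direction of Ppp1r15a and Atf3, and their part in these values was not tested. In HSCs Mthfd2 was at 0.691 and 0.692 CPM against 4.68 and 2.94 CPM (-2.47, adjusted p = 0.460, edgeR), and in hepatocytes Iars, the isoleucyl-tRNA synthetase, was at 17.7 and 8.90 CPM against 49.9 and 21.6 CPM (-1.36, adjusted p = 0.700, edgeR).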

How the data were processed

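The authors deposited 1 table of raw read counts per gene for each of the 16 libraries. Per the labels and the submitters' processing notes, reads were trimmed with Trimmomatic 0.32, aligned to GRCm38 with HISAT2 2.1.0 and counted with HTSeq 0.9.1, and edgeR is also named. The annotation release and the strand setting are not given in the sources used here, and the series and sample labels name different library kits. Identifiers were matched to GENCODE mouse release 21, which holds 99.1% of them, and its coordinates are printed. The 5 summary lines of each table stayed out of all totals.

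CPM was computed over gene rows and RPKM from the summed exon length. Label contrasts within a cell type, contrasts between WT cell types and their interactions were fitted over all genes with edgeR 4.0.16 (R 4.3.3) by filterByExpr, TMM factors and the quasi-likelihood test, with Benjamini-Hochberg adjustment and a threshold of 0.05. The SE is the unshrunk log2 fold change divided by the root of its F statistic. Pathway genes were named from the 3 highest and 3 lowest log2 fold changes per cell type, among genes with at least 1 CPM in the higher group and labels without overlap. For ECs all of these are named. For the other cell types only some are, with none of the higher ones for HSCs or hepatocytes. Likeness to Trib3 was the Pearson r of log2 CPM deviations, and the 5 highest genes were taken, of which 1 is not reported here. Eif2ak2, Slc7a5, Hspa5 and Ern1 were chosen after their values were seen. Hepatocyte-enriched genes had at least 10 CPM in WT hepatocytes and 8 times the WT Kupffer cell level. The scripts were tested on simulated data with known changes. Alternatives were DESeq2 1.42.0, other scaling and filters, and leaving out each library. The mean chi-square per gene between replicates was 32.4 to 120, above sampling noise. The members and lists were chosen with earlier results of these data known.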

Additional observations from a re-analysis of the deposited data

Results flagged for a closer look

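Opposite shifts of 1 member in 2 cell types, with no overlap between labels in either, were found in 4 cases. Within a single cell type, 16.1% to 24.2% of all genes lay without overlap in a given direction. The share of all genes with opposite shifts in 2 cell types was not counted. The 4 cases are therefore not read as a feature of the members. Ddit3 was higher under the KO label in hepatocytes (log2 fold change 0.316) and lower in Kupffer cells (-0.928), and the difference of these effects did not pass (adjusted p = 0.540, edgeR). Chac1 was lower in HSCs (-2.15) and higher in Kupffer cells (2.34), where the difference did not pass either (adjusted p = 0.322, edgeR). Chac1 was also higher under the KO label in ECs (2.09) and lower in HSCs (-2.15), and Gdf15 was lower in ECs (-2.48) and higher in Kupffer cells (0.944). These last 2 differences carry no test, since the EC counts of Trib3 had led to the choice of the set. Chac1 in HSCs rests on 0.622 and 0 CPM against 1.34 CPM, and the hepatocyte RNA share was lower under the KO label in ECs and higher in Kupffer cells, the same directions as Gdf15. Its part in that result was not tested.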

How the results depend on the processing

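No paired analysis was possible because the label numbers are not shared between groups. According to the methods of the study the 4 cell types were isolated at the same time, so libraries of different cell types may share an animal. The tests between cell types do not account for that. In ECs the log2 fold changes of the members kept their sign under every alternative that kept all libraries. With 1 library left out, Ddit3 (0.13 without KO library 6, 0.07 without WT library 38), Asns (-0.07 without WT library 38) and Sesn2 (-0.54 without KO library 46, -0.25 without WT library 38) changed sign, Gdf15 was -1.64 and Atf5 -1.44 without WT library 38, and Ddit4 was -0.13 without WT library 34. The number of EC members called is a description only, since Trib3 had been singled out by these values. It was 1 in the fit reported, 3 with DESeq2 and 0 with all 16 libraries in one fit. With at least 10 counts in every library it was 2, and without a filter 4. Without hepatocyte-enriched genes it was 0, and at an adjusted p under 0.1 it was 3. The choice of Trib3 had fixed part of these counts, so nothing is read from them. Pathway genes called in ECs, 0 in the fit reported, were 3 with DESeq2, with all 16 libraries, with at least 10 counts and without a filter, 2 at an adjusted p under 0.1, and 0 to 3 with a library left out. In HSCs DESeq2 called 2 and no filter 3 pathway genes, in Kupffer cells DESeq2 called 1, and in hepatocytes no filter gave 1 member and 1 pathway gene. Between WT hepatocytes and HSCs, 4 members became 2 with at least 10 counts and 1 (without hepatocyte library 33 or HSC library 32) to 5 with a library left out, and between hepatocytes and ECs 4 became 2 (without EC library 34) to 5. Between ECs and HSCs, 0 became 2 with DESeq2, 1 with RLE size factors, at least 10 counts, libraries labelled KO or total counts, 4 without a filter, and 0 to 1 with a library left out. Between ECs and Kupffer cells, 2 became 1 with at least 10 counts, 1 other member (Gdf15, adjusted p = 0.00624, edgeR) in libraries labelled KO, 4 without a filter and 1 (without EC library 34 or 38 or Kupffer cell library 31) to 2 with a library left out. Between HSCs and Kupffer cells, 2 became 1 with all 16 libraries or libraries labelled KO, and 0 (without Kupffer cell library 31 or HSC library 32) to 2 with a library left out. Members whose label effect differed between cell types went from 0 to 2 without a filter. The counts in this paragraph stand without the share of all genes called under the same alternative. They describe how the calls moved and say nothing of the members or pathway genes as a group. Trib3 between hepatocytes and ECs, 0.93, was -0.0802 in libraries labelled KO, -0.46 with total counts, and -0.92 (without WT hepatocyte library 33) to 1.72 with a library left out. The label effect on Atf4 ran from -0.0485 (without library 20) to 0.54 in HSCs and from -0.12 (without library 39) to 0.40 in Kupffer cells with a library left out. With stricter hepatocyte genes the share was 11.9% in WT EC library 38 and 2.46% in KO library 6. The cause of these changes was not tested. With 2 libraries a group, leaving out 1 assumes that the lone library varies like the others. Total counts scaling and the alternatives of the interaction were chosen after seeing the data.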
